A study of Mus musculus with 12 samples.

Results

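Interferon-stimulated genes were followed in cultured mouse vascular smooth muscle cells, as a set of 37 genes chosen by name. The 37 were matched by symbol and gene identifier, and all 37 were present in the RNA-seq table, which covers 26301 identifiers. In the RNA immunoprecipitation (RIP-seq) tables, which cover 15352 identifiers, all 37 were listed at passage 3, and 34 (Thoc2) and 35 (Thoc5) were listed at passage 10. Primary smooth muscle cells came from the aorta of C57BL/6 mice aged 6 weeks, in 12 samples. For RNA-seq, 2 libraries (shThoc5) carried a short hairpin RNA against Thoc5 and 2 libraries (shNT) carried a non-targeting hairpin. These cells were at passages 4 to 8 and their RNA was taken 4 days after infection. For RIP-seq, RNA recovered with an antibody against Thoc2 or Thoc5 was sequenced beside the input RNA, from cells of passage 10 and of passage 3, in 1 library for each antibody and each input at each passage. Both proteins belong to the THO complex, which is loaded onto nascent RNA and helps mRNA leave the nucleus. Both silenced libraries bear the same hairpin number, so an effect of that hairpin on another target cannot be told apart from an effect of Thoc5 loss. No library from a control antibody was analysed here, and neither were the 2 chromatin immunoprecipitation libraries.

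Interferons are secreted by cells that sense foreign or misplaced nucleic acid. Type I interferons bind the receptor Ifnar1 and Ifnar2, whose kinases Jak1 and Tyk2 phosphorylate Stat2, which joins Irf9 in a complex that binds the interferon-stimulated response element in promoters. The genes so induced encode nucleic acid sensors, further transcription factors and proteins that block viral translation, replication and release. Vascular smooth muscle cells carry the receptor and respond to interferons, and many of the genes are also transcribed at a low level without added interferon.

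The members' promoters were searched for the interferon-stimulated response element. Its core, GAAA followed by any 2 bases and GAAA, was sought on both strands, overlapping matches included, from 250 bases before to 50 bases after each gene's start in a RefSeq table of build GRCm38.p6. Of the 37 members, 28 matched the table, and Mx2, Oas2, Usp18, Rtp4, Dhx58, Parp14, Mx1, Zbp1 and Parp9 did not. The core was present in 13 of the 28 (46.4%), namely Ifih1, Ddx58, Stat2, Ifit1, Ifit3, Oas1a, Oas3, Rsad2, Isg15, Gbp2, Gbp3, Bst2 and Eif2ak2, and in 3.99% of the 27025 genes in the table. The core of the gamma-activated site, TTCNNNGAA, which reads the same on both strands and may overlap the other core, was present in 5 of the 28 (17.9%) and in 9.55% of all genes. A match describes the letters and does not show binding. The 6 members with the most RNA-seq reads among those with a match are shown with Isg15, which was added after its values were seen, since it led the set in the passage 3 input. Each sequence runs 5′ to 3′ on the gene's strand, with the matches to the core in capitals.

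Bst2, chr8:71537423-71537722, minus strand: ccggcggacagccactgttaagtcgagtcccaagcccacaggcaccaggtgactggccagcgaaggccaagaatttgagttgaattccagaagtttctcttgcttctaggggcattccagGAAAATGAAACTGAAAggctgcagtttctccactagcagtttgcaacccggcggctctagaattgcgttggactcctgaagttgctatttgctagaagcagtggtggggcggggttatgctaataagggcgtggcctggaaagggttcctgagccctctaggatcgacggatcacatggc
Ifit3, chr19:34583279-34583578, plus strand: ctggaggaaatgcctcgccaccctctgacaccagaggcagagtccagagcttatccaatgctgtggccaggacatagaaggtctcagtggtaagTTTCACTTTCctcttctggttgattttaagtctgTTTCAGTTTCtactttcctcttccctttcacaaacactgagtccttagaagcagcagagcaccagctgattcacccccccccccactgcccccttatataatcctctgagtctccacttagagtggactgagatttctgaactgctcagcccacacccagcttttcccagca
Stat2, chr10:128270248-128270547, plus strand: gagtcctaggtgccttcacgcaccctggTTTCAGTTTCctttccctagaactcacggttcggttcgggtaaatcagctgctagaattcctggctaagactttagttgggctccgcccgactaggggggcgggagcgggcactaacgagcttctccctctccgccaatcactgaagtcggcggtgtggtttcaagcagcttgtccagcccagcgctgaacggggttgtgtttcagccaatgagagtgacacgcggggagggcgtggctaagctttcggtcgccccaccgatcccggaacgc
Ifit1, chr19:34640639-34640938, plus strand: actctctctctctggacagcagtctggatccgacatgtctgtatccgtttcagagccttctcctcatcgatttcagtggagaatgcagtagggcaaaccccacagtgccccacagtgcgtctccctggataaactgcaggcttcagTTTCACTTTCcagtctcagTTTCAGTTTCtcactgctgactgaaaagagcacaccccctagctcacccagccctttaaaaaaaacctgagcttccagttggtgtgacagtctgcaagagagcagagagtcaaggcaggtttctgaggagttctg
Ddx58, chr4:40239776-40240075, minus strand: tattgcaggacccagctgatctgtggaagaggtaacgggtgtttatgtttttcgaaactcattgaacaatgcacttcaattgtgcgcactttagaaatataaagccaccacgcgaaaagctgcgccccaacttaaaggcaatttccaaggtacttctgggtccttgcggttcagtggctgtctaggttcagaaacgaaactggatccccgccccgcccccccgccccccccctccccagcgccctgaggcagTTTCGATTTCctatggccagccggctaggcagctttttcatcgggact
Eif2ak2, chr17:78882523-78882822, minus strand: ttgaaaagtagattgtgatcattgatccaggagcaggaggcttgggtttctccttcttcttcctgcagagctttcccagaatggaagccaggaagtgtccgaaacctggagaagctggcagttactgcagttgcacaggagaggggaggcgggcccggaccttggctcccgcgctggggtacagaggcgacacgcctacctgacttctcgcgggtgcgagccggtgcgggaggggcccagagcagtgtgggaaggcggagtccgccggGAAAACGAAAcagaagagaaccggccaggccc
Isg15, chr4:156200769-156201068, minus strand: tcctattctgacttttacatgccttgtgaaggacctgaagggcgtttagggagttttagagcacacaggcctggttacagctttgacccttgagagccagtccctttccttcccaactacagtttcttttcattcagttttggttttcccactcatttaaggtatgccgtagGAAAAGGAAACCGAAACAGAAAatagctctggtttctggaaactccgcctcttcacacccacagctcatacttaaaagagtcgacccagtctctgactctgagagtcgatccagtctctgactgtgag

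In Ifit1 and Ifit3, 2 separate matches lay upstream of the start. They lay between 104 and 76 bases before it in Ifit1 and between 156 and 113 bases before it in Ifit3. In Isg15, 3 matches overlapped within a run of 22 bases that began 78 bases before the start. Stat2 held 1 match, 222 bases before its start. In Ddx58 and Eif2ak2, whose products bind double-stranded RNA, the match lay just after the start, at bases 3 to 12 and 19 to 28 of the transcribed side.

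The RNA-seq libraries held 15819207 to 21037732 counted reads and the RIP-seq libraries 5396291 to 36336141, the lowest being the Thoc2 precipitate of passage 3. Thoc5, the silenced gene, stood at 7.25 and 5.66 CPM (read counts scaled to library size) in shThoc5 and at 33.7 and 40.2 CPM in shNT, so both silenced libraries lay below both shNT libraries. Of 8 smooth muscle markers, Acta2 stood at 4549 CPM in the passage 10 input and 2091 CPM in the passage 3 input and at 799 to 2430 CPM in RNA-seq. Myh11 and Des stayed under 10 CPM in all of these libraries, and Myocd was under 1 CPM in RNA-seq and unlisted in both inputs. The main axis of variation in RNA-seq (61.3% of variance) separated the libraries numbered 2 from those numbered 1, not shThoc5 from shNT. Of the members, 14 were higher in both libraries numbered 2 and 9 were lower, where 26.6% and 27.8% of all tested genes did so. Nothing in the labels ties the libraries of a group to different animals or cultures, and p-values reflect only the spread among them, which may be technical. Ribosomal RNA took 18.0% of the Thoc2 and 6.74% of the Thoc5 precipitate at passage 3 and at most 1.60% of each other RIP-seq library. The reads of some members are uncertain because another counted gene overlaps or nearly copies them. The spans of Stat2 and Apof, Ifit1 and Ifit1bl1, Parp9 and Dtx3l, Rtp4 and Masp1, and Eif2ak2 and Gm6548 overlap. Ifit3 has the near copy Ifit3b, Oas1a belongs to a cluster of Oas1 genes, and Oasl1, Oasl2, Gbp2 and Gbp3 have close paralogs.

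The first comparison set the starting RNA of passage 10 beside that of passage 3. The interferon-stimulated genes were much less abundant in the passage 10 input. Together they made up 675 CPM of the passage 10 input and 9037 CPM of the passage 3 input, 13.4-fold lower (95% interval 13.2 to 13.6). Of the 37 members, 31 were at least 2-fold lower at passage 10, where 14.3% of 14952 genes were, and 0 were at least 2-fold higher, where 28.0% of genes were. The remaining 6 (Irf9, Ifit2, Uba7, Parp12, Dtx3l and Eif2ak2) were lower by less than 2-fold. The members' median log2 ratio of passage 10 over passage 3, with 0.5 CPM added to both, was −3.61 (range −8.23 to −0.48), against a median of 0.35 over all genes detected. Further, 21 members were at least 10-fold lower, where 4.15% of all genes were, and 10 were at least 50-fold lower, where 0.930% were. The 2-fold mark was set on that log2 ratio. There was 1 library per passage, so these are differences between 2 libraries with no replicate check, and each interval covers counting error only.

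The sensors of foreign nucleic acid were lower at passage 10 in all 4 cases. Zbp1, which binds left-handed double helices and can trigger cell death, had 6 reads at passage 10 and 8901 at passage 3, or 0.315 and 245 CPM, 777-fold lower (357 to 2119). Ifih1, the receptor MDA5 for long double-stranded RNA, stood at 5.25 CPM at passage 10 and 79.5 CPM at passage 3. Dhx58, a related helicase that lacks the signalling domains, stood at 4.31 and 46.95 CPM in the same order. Ddx58, the receptor RIG-I for RNA with a 5′ triphosphate, differed least of the 4, at 31.1 CPM at passage 10 and 105 CPM at passage 3.

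Among the transcription factors, Irf7, which amplifies interferon production, had 179 reads at passage 10 and 33167 at passage 3, or 9.40 and 913 CPM, 97.1-fold lower (83.8 to 113). Stat2 stood at 41.5 CPM at passage 10 and 140 CPM at passage 3. Irf9, its partner in the activating complex, stood at 37.7 and 61.3 CPM in that order, a difference of 1.63-fold (1.49 to 1.77). The induced factor thus lay further apart between the inputs than the components of the activating complex did.

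Some IFIT proteins bind viral RNA or the translation machinery. Ifit1 had 310 reads at passage 10 and 52340 at passage 3, or 16.3 and 1440 CPM, 88.5-fold lower (79.1 to 99.2). Ifit3 stood at 28.7 CPM at passage 10 and 843 CPM at passage 3, 29.4-fold lower (27.0 to 32.1). Ifit2, the third member of the family, stood at 29.6 and 41.6 CPM, a difference of 1.40-fold (1.27 to 1.55) and the smallest of the 37. Rank by reads shows the scale for the most abundant transcripts. Ifit1 was the 7810th gene by reads in the passage 10 input and the 80th in the passage 3 input, and Isg15 was the 5675th at passage 10 and the 77th at passage 3.

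Several OAS proteins, though not all, make a short nucleotide that activates the nuclease RNase L. All 5 members of the family were at least 10-fold lower. Oas1a had 7 reads at passage 10 and 1071 at passage 3, and Oas2 had 9 reads at passage 10 and 1378 at passage 3. Both differed by about 80.2-fold, with intervals of 38.8 to 199.9 for Oas1a and 42.1 to 176 for Oas2. Oasl1 had 10 reads at passage 10 and 920 at passage 3, and Oasl2 stood at 15.3 and 249.6 CPM. Oas3 was unlisted at passage 10, which means at most 10 reads, against 383 reads at passage 3, at least 20.1-fold lower. The Mx GTPases are a family that can trap viral nucleocapsids. Of these, Mx1 was likewise unlisted at passage 10 and had 803 reads at passage 3, at least 42.1-fold lower. Mx2 had 30 reads at passage 10 and 966 at passage 3, 16.9-fold lower (11.7 to 25.1).

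Rsad2 and Cmpk2 are neighbouring genes whose products act in turn to make a nucleotide that ends viral RNA chains. Rsad2 had 11 reads at passage 10 and 3251 at passage 3, 155-fold lower (86.4 to 311). Cmpk2 had 13 reads at passage 10 and 1988 at passage 3, 80.1-fold lower (46.7 to 151). Both were thus near the limit of detection at passage 10.

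Isg15 is a ubiquitin-like protein, Uba7 its activating enzyme, and Usp18 the protease that removes it and also restrains the interferon receptor. Isg15 had 605 reads at passage 10 and 53655 at passage 3, or 31.8 and 1477 CPM, 46.5-fold lower (42.9 to 50.4). Usp18 stood at 3.89 CPM at passage 10 and 215 CPM at passage 3, 55.4-fold lower (44.1 to 70.6). Uba7 stood at 8.61 and 17.2 CPM in that order, 1.99-fold lower (1.68 to 2.38). Trim25, a ubiquitin ligase that acts on the sensor RIG-I, stood at 27.7 CPM at passage 10 and 63.9 CPM at passage 3. The modifier and its protease thus lay further apart between the inputs than its activating enzyme Uba7 did.

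The PARP group differed less. Parp14, a large ADP-ribosyltransferase, stood at 10.03 CPM at passage 10 and 75.3 CPM at passage 3, 7.50-fold lower (6.48 to 8.73). Parp9 and its partner ligase Dtx3l, which are divergent neighbours, stood at 27.8 and 15.1 CPM at passage 10 and at 74.6 and 27.1 CPM at passage 3. Parp12 stood at 20.5 CPM at passage 10 and 39.2 CPM at passage 3. Of the guanylate-binding proteins, which attack membranes around intracellular pathogens, Gbp3 stood at 3.83 CPM at passage 10 and 249 CPM at passage 3, 64.9-fold lower (51.6 to 82.9). Gbp2 stood at 9.87 and 160 CPM in that order.

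Of the other effectors, Ifi44, a defining gene of the set, had 20 reads at passage 10 and 7526 at passage 3, or 1.05 and 207 CPM, 197-fold lower (128 to 323). Bst2, tetherin, which holds budding virus at the cell surface, stood at 135 CPM at passage 10 and 1160 CPM at passage 3, 8.56-fold lower (8.23 to 8.92). It was the most abundant member at passage 10 and remained well above the others there. Xaf1 stood at 20.1 CPM at passage 10 and 250 CPM at passage 3, Rtp4 at 14.9 and 143 CPM, and Ifi35 at 40.7 and 156 CPM. Samd9l, a growth inhibitor, stood at 20.96 CPM at passage 10 and 117 CPM at passage 3, and Helz2, a large helicase, at 7.04 and 67.8 CPM. Eif2ak2, the kinase PKR that halts translation, stood at 52.1 CPM at passage 10 and 75.7 CPM at passage 3, 1.45-fold lower (1.35 to 1.56).

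**Figure D1:**
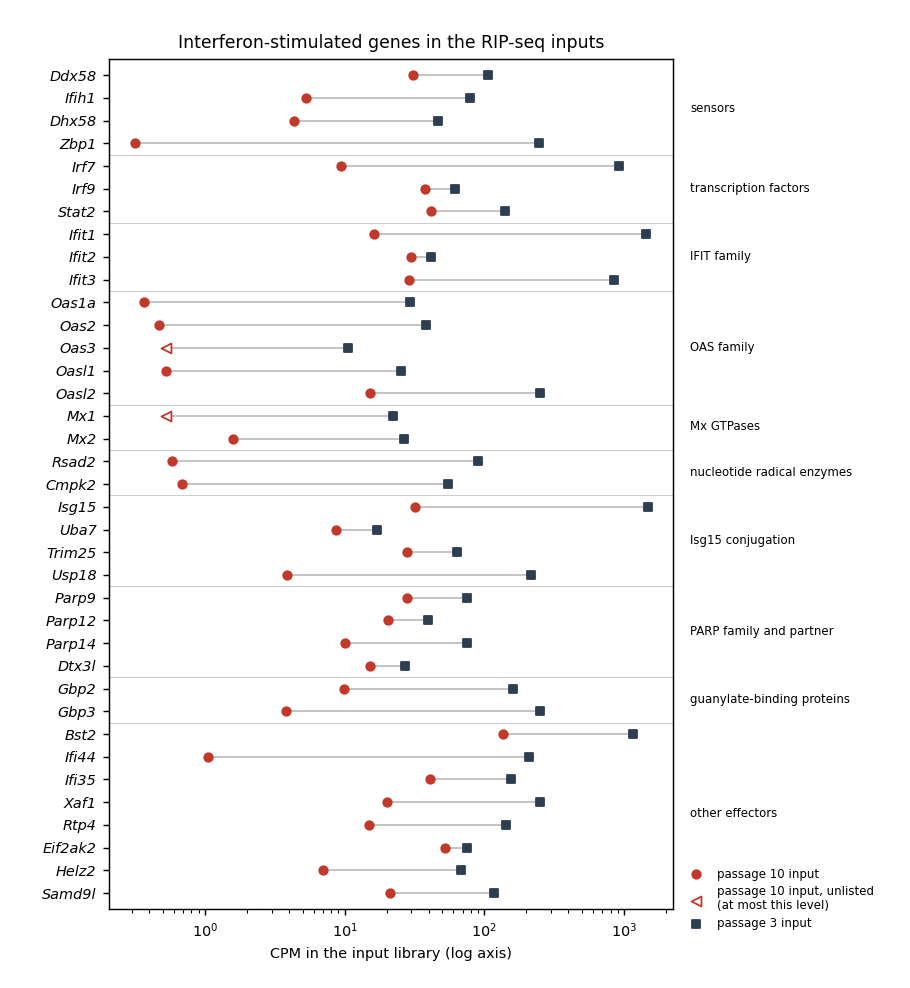
CPM (log axis) of each of the 37 members in the passage 10 input (red circles, or open arrowheads at the highest level possible for 2 unlisted genes) and the passage 3 input (dark squares), 1 library each. Every red mark lies left of its square, and the gap runs from 1.40-fold for Ifit2 to 777-fold for Zbp1.

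Per kilobase of the deposited gene length, which was given for 35 members, Bst2 led at passage 10 with 176 CPM per kilobase and Isg15 followed with 42.03. At passage 3 the order was Isg15 at 1953, Bst2 at 1508, Ifit1 at 546, Irf7 at 499 and Ifit3 at 422 CPM per kilobase. Isg15, Ifit1, Bst2 and Irf7 together held 55.2% of the members' reads at passage 3. Members with the core of the response element had a median log2 ratio of −3.95 (13 genes) and matched members without it a median of −2.45 (15 genes). Among all genes that were detected and matched, 26.9% of 420 with the core and 12.05% of 10789 without it were at least 2-fold lower at passage 10.

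**Figure D2:**
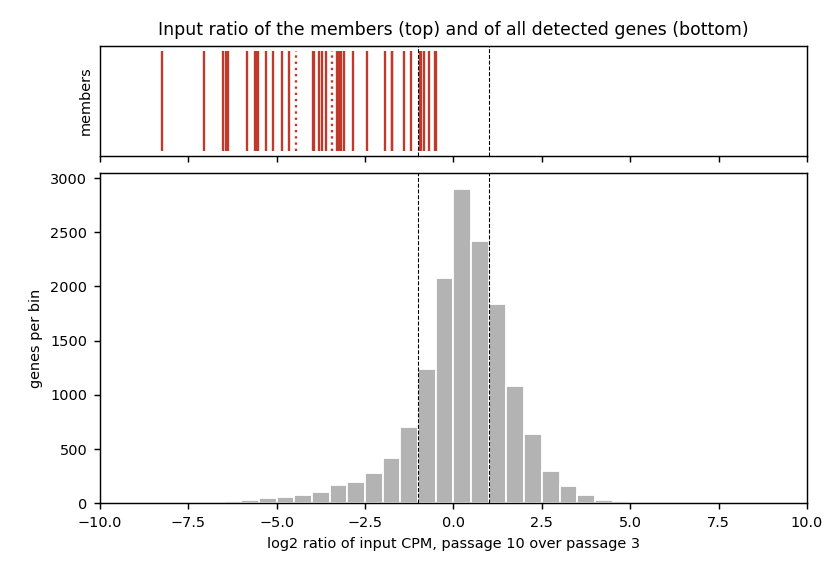
Log2 ratio of input CPM, passage 10 over passage 3, for the 37 members (top, 1 line each, dotted for the 2 unlisted at passage 10) and for all detected genes (bottom, counts per bin of 0.5 log2 units), with dashed lines at 2-fold. All 37 members lie below 0, with a median of −3.61, while the median of all detected genes is 0.35.

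Other genes of the interferon pathway differed less between the inputs. Of 91 further pathway genes, 81 were listed, with a median log2 ratio of −1.12 (unlisted genes at 10 reads). Of these 81, 42 were at least 2-fold lower at passage 10, where 14.3% of all genes were. In turn 8 were at least 2-fold higher, where 28.0% of all genes were. Of the receptor chains, Ifnar1 stood at 113 CPM at passage 10 and 101 CPM at passage 3. Ifnar2 stood at 61.1 CPM at passage 10 and 216 CPM at passage 3. Ifngr1, a chain of the receptor for interferon gamma, stood at 124 and 44.5 CPM in that order, higher at passage 10. Of the kinases, Jak1 stood at 91.4 CPM at passage 10 and 150 CPM at passage 3, Jak2 at 43.5 and 44.1 CPM, and Tyk2 at 21.8 and 10.8 CPM. Irf1 stood at 46.5 CPM at passage 10 and 30.9 CPM at passage 3, and Irf3 at 41.3 and 22.9 CPM. Of 9 sensing adaptors and kinases, 3 were at least 2-fold higher at passage 10 (28.0% of all genes) and 1 at least 2-fold lower (14.3%). The 3 were the adaptors Mavs and Ticam1 and the ligase Traf3. Another 49 listed genes are known to respond to interferon but lie outside the 37. Of these, 35 were at least 2-fold lower (14.3% of all genes) and 2 at least 2-fold higher (28.0%). Ifitm3, which blocks viral fusion, stood at 699 CPM at passage 10 and 2295 CPM at passage 3, and Lgals3bp at 121 and 1288 CPM. Of the interferon genes, only Ifnb1 was listed, with at most 10 reads at passage 10 and 63 at passage 3.

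Markers of other cell types differed between the same inputs. Of 14 macrophage and leukocyte markers, 4 were listed at passage 10 and 11 at passage 3, and their summed level was 54.6 CPM at passage 10 and 272 CPM at passage 3. Of the 11, 10 were at least 2-fold lower at passage 10, where 14.3% of all genes were. The other, Cd14, stood at 37.3 CPM at passage 10 and 28.7 CPM at passage 3, and gave most of the passage 10 sum. The macrophage marker Adgre1 was unlisted at passage 10 and at 40.1 CPM at passage 3, and Siglech, Cd3e and Cd79a were unlisted in both. Endothelial markers summed to 70.4 CPM at passage 10 and 230 CPM at passage 3. Of the 7 listed, 5 were at least 2-fold lower at passage 10. The others were Cdh5, at 43.1 CPM at passage 10 and 65.6 CPM at passage 3, and Kdr, at 1.52 and 0.688 CPM. Adventitial fibroblast markers summed to 193 and 1632 CPM in that order, of which Ly6a, itself interferon-responsive, gave 90.03 and 1491 CPM. Of these 8, 5 were at least 2-fold lower at passage 10. Scara5 was higher there, at 28.5 CPM against 1.82 CPM at passage 3. Pdgfra stood at 67.5 CPM at passage 10 and 71.4 CPM at passage 3, and Pi16 at 2.21 and 2.72 CPM. Smooth muscle markers summed to 6520 CPM at passage 10 and 4515 CPM at passage 3. Of the 7 listed, 2 were at least 2-fold lower at passage 10 (14.3% of all genes) and 3 at least 2-fold higher (28.0%). The part of these cells in the members' difference was not tested, and in bulk RNA fewer cells of a type and less RNA per cell cannot be told apart. Batch, culture and passage cannot be told apart either, since each passage has 1 input.

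The second comparison asked what Thoc5 silencing did to the same genes at passages 4 to 8. None of the 37 passed the main test, a fit that left out the library numbers. All 37 passed the filter on low counts. The edgeR quasi-likelihood test called 0 members and 0 of 13569 genes higher or lower (0% of genes in each direction), with 1 member and 651 genes (4.80%) at an unadjusted p under 0.05. DESeq2 called 0 members and 48 genes (0.462%), and limma-voom called 0 of either. The members' median log2 fold change of shThoc5 over shNT was −0.12, against 0.0063 over all genes tested, and 22 members lay below 0 and 15 above. In both silenced libraries 8 members (Ddx58, Ifit3, Oasl1, Isg15, Trim25, Ifi44, Xaf1 and Samd9l) were lower than in both shNT libraries, where 16.4% of genes were. In 5 (Oas1a, Mx1, Cmpk2, Parp12 and Parp14) both silenced libraries were higher, where 16.2% of genes were, and in 24 the groups overlapped. For a single gene, the smallest two-sided p that an exact permutation test allows with 2 libraries against 2 is 0.333. In the authors' deposited table, 35 members were present with a median log2 fold change of −0.1259, and 0 had an unadjusted p-value under 0.05.

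Scaled as in the edgeR fit, the 37 members summed to 2503 and 2504 CPM in shThoc5 and 2635 and 2844 CPM in shNT. By library totals, as used for the inputs and for the markers below, they summed to 2547 and 2546 CPM in shThoc5. In shNT the sums by library totals were 2624 and 2755 CPM. These levels lie between those of the inputs of passage 10 and passage 3, but they come from libraries made separately and are set side by side only. Macrophage and leukocyte markers summed to 15.4 to 22.6 CPM over the 4 RNA-seq libraries, and Cd3e and Siglech were at 0 in all 4. Cd14 alone gave most of each sum, at 11.9 to 19.0 CPM. Endothelial markers summed to 301 and 317 CPM in shThoc5 and to 391.6 and 626 CPM in shNT, lower in both silenced libraries, with 1 of 8 (Cldn5) at 0 in both libraries numbered 1. Cdh5, which encodes the endothelial cadherin, stood at 54.04 and 41.03 CPM in shThoc5 and at 104 and 119.5 CPM in shNT. The 8 did not all follow. Egfl7 stood at 8.36 and 19.7 CPM in shThoc5 and at 6.11 and 14.9 CPM in shNT. Kdr stood at 0.346 and 0.506 CPM in shThoc5 and at 0.162 and 0.428 CPM in shNT. Both had the higher mean in shThoc5 with overlap, and Emcn and Tek overlapped too. The part of these cell types in the members' values was not tested.

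The sensors overlapped or nearly overlapped between the groups. Ddx58 stood at 140 and 147 CPM in shThoc5 and at 151 and 178 CPM in shNT, lower in both silenced libraries. Ifih1 stood at 35.6 and 42.8 CPM in shThoc5 and at 40.98 and 53.2 CPM in shNT, with overlap (log2 fold change −0.27, SE 0.19, edgeR adjusted p = 0.9995). Dhx58 stood at 34.5 and 31.6 CPM in shThoc5 and at 32.1 and 30.7 CPM in shNT, and Zbp1 at 4.13 and 2.11 CPM in shThoc5 and at 3.96 and 3.44 CPM in shNT.

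The transcription factors overlapped in all 3 cases. Irf7 stood at 86.8 and 53.9 CPM in shThoc5 and at 74.6 and 55.8 CPM in shNT. Irf9 stood at 93.4 and 97.2 CPM in shThoc5 and at 96.4 and 113 CPM in shNT. Stat2 stood at 165 and 199 CPM in shThoc5 and at 171 and 206 CPM in shNT.

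Of the IFIT genes, Ifit3 stood at 181 and 115 CPM in shThoc5 and at 253 and 189 CPM in shNT, lower in both silenced libraries (log2 −0.58, SE 0.27, edgeR adjusted p = 0.9995). Ifit1 stood at 144 and 168 CPM in shThoc5 and at 164 and 207 CPM in shNT, and Ifit2 at 58.8 and 89.98 CPM in shThoc5 and at 69.6 and 73.4 CPM in shNT. Both overlapped between the groups.

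The OAS and Mx genes pointed in different directions, and all but Oasl2 were low. Oas2 stood at 12.99 and 7.77 CPM in shThoc5 and at 9.34 and 4.86 CPM in shNT (log2 0.55, SE 0.41). Oas3, the only member under 1 CPM on average, had 18 and 8 reads in shThoc5 and 11 and 7 reads in shNT (log2 0.57, SE 0.58). Oas1a stood at 10.7 and 9.02 CPM in shThoc5 and at 8.36 and 8.34 CPM in shNT, higher in both silenced libraries. Oasl1 stood at 4.72 and 4.97 CPM in shThoc5 and at 5.97 and 5.30 CPM in shNT, lower in both, and Oasl2 at 97.1 and 87.9 CPM in shThoc5 and at 106.6 and 96.1 CPM in shNT. Mx1 had 26 and 28 reads in shThoc5 and 18 and 17 in shNT (log2 0.72, SE 0.41), and Mx2 stood at 10.2 and 10.6 CPM in shThoc5 and at 10.5 and 13.5 CPM in shNT. For Oas2, Oas3 and Mx1 the edgeR adjusted p was 0.9995.

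Cmpk2, the kinase that supplies the substrate of Rsad2, had the largest log2 fold change of the 37. It stood at 4.81 and 7.71 CPM in shThoc5 and at 2.82 and 4.07 CPM in shNT, higher in both silenced libraries (log2 0.85, SE 0.37, edgeR adjusted p = 0.9995). Rsad2 stood at 3.70 and 8.40 CPM in shThoc5 and at 3.96 and 6.13 CPM in shNT, with overlap.

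Of the Isg15 system, Isg15 itself stood at 97.7 and 97.6 CPM in shThoc5 and at 111 and 156 CPM in shNT, lower in both silenced libraries (log2 −0.45, SE 0.20, edgeR adjusted p = 0.9995). Trim25 stood at 133 and 124 CPM in shThoc5 and at 144 and 140.3 CPM in shNT, also without overlap. Uba7 stood at 33.3 and 37.7 CPM in shThoc5 and at 35.4 and 39.3 CPM in shNT, and Usp18 at 60.2 and 70.02 CPM in shThoc5 and at 69.9 and 80.1 CPM in shNT, both with overlap.

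Parp14 had the lowest p of the members. It stood at 61.6 and 82.2 CPM in shThoc5 and at 45.7 and 49.8 CPM in shNT, higher in both silenced libraries, with a log2 fold change of 0.59 (SE 0.19, unadjusted p = 0.0218 and adjusted p = 0.9995 by edgeR, adjusted p = 0.640 by DESeq2). Parp12 stood at 47.3 and 51.2 CPM in shThoc5 and at 44.5 and 44.6 CPM in shNT, also higher in both. Parp9 stood at 62.4 and 69.4 CPM in shThoc5 and at 60.4 and 69.8 CPM in shNT, and Dtx3l at 47.1 and 48.9 CPM in shThoc5 and at 45.9 and 51.6 CPM in shNT, both with overlap. Gbp2 stood at 13.4 and 8.71 CPM in shThoc5 and at 11.9 and 6.13 CPM in shNT (log2 0.30, SE 0.39, edgeR adjusted p = 0.9995), and its sign turned without shNT replicate 2 (−0.11) and without shThoc5 replicate 1 (−0.062). Gbp3 stood at 43.3 and 30.3 CPM in shThoc5 and at 45.3 and 34.8 CPM in shNT.

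Of the other effectors, Bst2 had the highest mean of all members in each group. It stood at 243 and 188 CPM in shThoc5 and at 238 and 234 CPM in shNT, with overlap. Stat2 was higher in shThoc5 replicate 2 (199 CPM), and Ifit3 was higher in shNT replicate 1 (253 CPM). Ifi44 stood at 58.8 and 41.7 CPM in shThoc5 and at 64.8 and 60.4 CPM in shNT, lower in both silenced libraries (log2 −0.32, SE 0.20, edgeR adjusted p = 0.9995). Samd9l stood at 77.6 and 77.5 CPM in shThoc5 and at 87.4 and 96.3 CPM in shNT, and Xaf1 at 43.2 and 40.7 CPM in shThoc5 and at 46.2 and 45.7 CPM in shNT, both lower in the silenced libraries. Rtp4 stood at 74.5 and 70.3 CPM in shThoc5 and at 73.98 and 90.1 CPM in shNT, and Ifi35 at 52.4 and 60.1 CPM in shThoc5 and at 48.6 and 62.8 CPM in shNT. Eif2ak2 stood at 131 and 156 CPM in shThoc5 and at 142 and 187 CPM in shNT, and Helz2 at 134 and 164 CPM in shThoc5 and at 114 and 146 CPM in shNT. These last 4 overlapped between the groups.

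**Figure D3:**
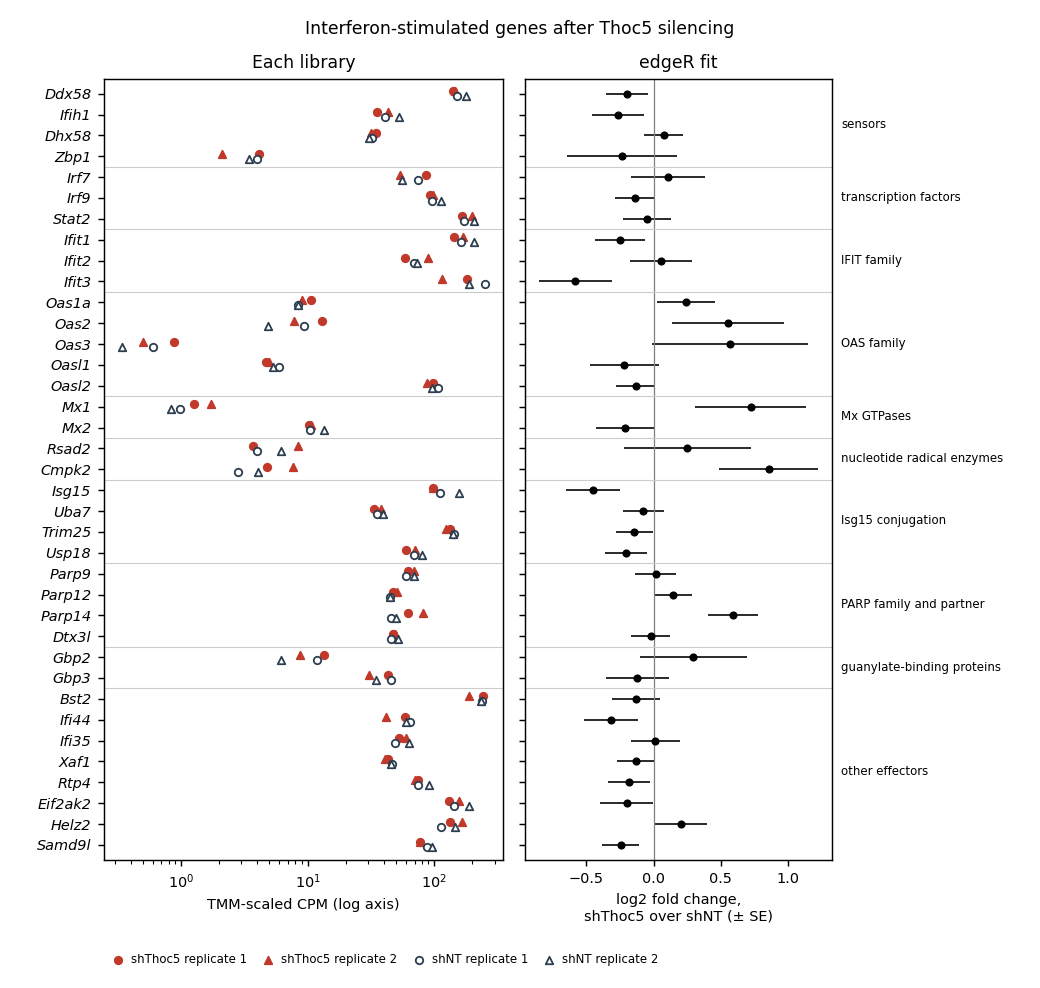
Left, scaled CPM (log axis) of each member in each RNA-seq library, with shThoc5 filled red and shNT open, circles for replicate 1 and triangles for replicate 2. Right, the edgeR log2 fold change of shThoc5 over shNT with its standard error, which runs from −0.58 (Ifit3) to 0.85 (Cmpk2), with 0 of 37 past the threshold.

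Per kilobase of deposited gene length, Bst2 led with mean levels of 280.1 CPM per kilobase in shThoc5 and 307 in shNT, followed by Isg15 (129 and 176), Ifit3 (74.0 and 111) and Ifit1 (59.1 and 70.2). Rsad2, Zbp1, Cmpk2, Oas2 and Oasl1 lay under 3 CPM per kilobase in both groups. Standard errors of the members' log2 fold changes ranged from 0.14 to 0.58 with a median of 0.19, and 27 members differed by less than 1.2-fold between the groups. The fold changes given with a standard error rest on few libraries. Leaving out 1 library kept the sign of all but Gbp2 among the 10 largest and moved each by over 1.5 times. The log2 fold change of Cmpk2 was 0.48 and that of Ifit3 −0.29 without shThoc5 replicate 2, and they were 1.15 and −0.95 without shThoc5 replicate 1. In the same way Parp14 was 0.37 and 0.77, Mx1 0.48 and 0.93, and Ifi44 −0.092 and −0.60. Isg15 was −0.18 and Ifih1 −0.065 without shNT replicate 2, and −0.68 and −0.44 without shNT replicate 1. Oas2 was 0.12 and Oas3 0.078 without shThoc5 replicate 1, and 1.10 and 1.003 without shNT replicate 1. Values that miss the threshold do not show that the levels were alike.

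The signalling genes gave no call either. Of the 91 pathway genes outside the set, 78 were tested, 0 passed in edgeR and 6 had an unadjusted p under 0.05. In 14 of the 78 both silenced libraries were lower, where 16.4% of genes were, and in 15 both were higher, where 16.2% were. The 10 interferon genes of the list had 9 reads in all over the 4 libraries and at most 3 in any of them. Ifnar1 stood at 118 and 131 CPM in shThoc5 and at 118 and 121 CPM in shNT, and Ifnar2 at 58.9 and 70.8 CPM in shThoc5 and at 59.7 and 72.5 CPM in shNT, so the receptor for type I interferons overlapped. Of the other receptor chains, Ifngr1 averaged 86.5 CPM in shThoc5 and 88.7 CPM in shNT, Ifngr2 102 and 83.04, Il10rb 41.4 and 43.3, and Ifnlr1 6.37 and 5.51. Of the kinases, Jak1 averaged 293 CPM in shThoc5 and 321 CPM in shNT, Jak2 42.3 and 45.4, and Tyk2 48.7 and 59.04. Irf1, a factor induced by interferon gamma, stood at 34.1 and 33.7 CPM in shThoc5 and at 25.7 and 22.9 CPM in shNT, and Irf3, which switches on interferon genes, at 60.2 and 52.05 CPM in shThoc5 and at 44.5 and 39.995 CPM in shNT. Both were higher in each silenced library, with log2 fold changes of 0.48 (SE 0.15) and 0.41 (SE 0.15) and an edgeR adjusted p of 0.9995 each.

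The third comparison asked which of these transcripts were recovered with Thoc2 and Thoc5. Enrichment was called where the log2 ratio, precipitate over input, was 1 or more, with 0.5 CPM added to both, and a minimum of 10 reads and 1 CPM in the precipitate. Depletion was called at −1 or below with the same minimum in the input. Helz2 and Parp14 were enriched in all 4 precipitates and Stat2 and Oas2 in 3, and Isg15 had the lowest log2 ratio in each. At passage 10, 4 of 30 detected members were enriched with Thoc2 (12.3% of genes) and 2 of 31 with Thoc5 (5.94%). At passage 3, 7 of 37 were enriched with Thoc2 (18.0% of genes) and 9 of 37 with Thoc5 (23.0%). These shares of the members, 13.3% and 6.45% at passage 10 and 18.9% and 24.3% at passage 3, were close to those of all genes. Depleted members numbered 0 with Thoc2 (7.33% of genes) and 1 with Thoc5 (4.61%) at passage 10, and 7 with Thoc2 (21.8%) and 1 with Thoc5 (12.7%) at passage 3. With 1 library each there was no test, and folds are given without the added amount, with an interval for counting error only.

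The summed level of the set lay above the input with both antibodies at passage 10 and below it with both at passage 3. At passage 10 the members summed to 833 CPM with Thoc2 and 712 CPM with Thoc5, against 675 CPM in the input, ratios of 1.23 (1.20 to 1.26) and 1.05 (1.02 to 1.09). In the passage 3 libraries the sums were 6132 CPM with Thoc2 and 8809 CPM with Thoc5, against 9037 CPM in the input, ratios of 0.679 (0.671 to 0.686) and 0.975 (0.966 to 0.984). With library totals that leave out ribosomal RNA, Lars2 and Malat1, the passage 3 ratios were 0.842 with Thoc2 and 1.04 with Thoc5, so the direction with Thoc5 depended on the total. The sums weigh abundant members most, and 4 members held 55.2% of the members' reads in the passage 3 input. Gene by gene, the members' median log2 ratio at passage 3 was −0.10 with Thoc2 and 0.28 with Thoc5. Of the 37, 17 lay above the input with Thoc2 and 25 with Thoc5. The passage 10 medians were 0.033 with Thoc2 (18 of 34 above the input) and 0.073 with Thoc5 (20 of 35). The medians over all listed genes were −0.17 (Thoc2) and 0.14 (Thoc5) on the log2 scale at passage 3 and within 0.035 of 0 at passage 10.

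Helz2, which encodes a large nuclear helicase, was enriched in all 4 precipitates. At passage 10 it had 1468 reads with Thoc2 and 303 with Thoc5, against 134 in the input, 12.8-fold (10.7 to 15.4) and 4.60-fold (3.74 to 5.68) higher by CPM. At passage 3 it had 2554 reads with Thoc2 and 2724 with Thoc5, against 2462 in the far deeper input, 6.99-fold (6.61 to 7.39) and 6.73-fold (6.37 to 7.11) higher. It was the most enriched member in each of the 4. Its deposited gene length of 10109 bases is the longest of the 35 known here.

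Parp14, the second longest at 7251 bases, was also enriched in all 4. At passage 10 it had 514 reads with Thoc2 and 250 with Thoc5, against 191 in the input, 3.14-fold (2.66 to 3.73) and 2.66-fold (2.20 to 3.23) higher. The passage 3 counts were 1360 reads with Thoc2 and 1216 with Thoc5, against 2735 in the input, 3.35-fold (3.14 to 3.57) and 2.70-fold (2.52 to 2.89) higher. Its ratio thus differed little between antibodies and passages. Parp9, Parp12 and Dtx3l, of the same group, were not enriched in any precipitate, with log2 ratios from −0.34 to 0.65.

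Stat2 and Oas2 were enriched in 3 of the 4, all but Thoc5 at passage 10. Stat2 had 1727 reads with Thoc2 and 555 with Thoc5 at passage 10, against 791 in the input, 2.55-fold (2.34 to 2.78) and 1.43-fold (1.28 to 1.59) higher. At passage 3 it had 1677 reads with Thoc2 and 3163 with Thoc5, against 5098 in the input, 2.22-fold (2.09 to 2.34) and 3.77-fold (3.61 to 3.94) higher. Its partners did not follow, since Irf9 had log2 ratios from −0.017 to 0.85 and Irf7 from −0.66 to 0.060. Oas2 had 45 reads with Thoc2 and 10 with Thoc5 at passage 10, against 9 in the input, 5.84-fold (2.82 to 13.6) higher with Thoc2, a call that ended with 2 CPM added (log2 0.94). The passage 3 precipitates held 778 reads with Thoc2 and 1395 with Thoc5, against 1378 in the input, 3.80-fold (3.48 to 4.15) and 6.16-fold (5.71 to 6.64) higher. The other OAS members lay between −0.72 and 0.87 on the log2 scale and none was called.

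Uba7 and Mx2 were enriched with neither antibody at passage 10 and with both at passage 3. At passage 10 Uba7 had 250 reads with Thoc2 and 59 with Thoc5, against 164 in the input, log2 ratios of 0.80 and −0.42. At passage 3 it had 362 reads with Thoc2 and 670 with Thoc5, against 624 in the input, 3.91-fold (3.42 to 4.45) and 6.53-fold (5.85 to 7.29) higher. Mx2 had 30 reads with Thoc2 and 6 with Thoc5 at passage 10, against 30 in the input, so its ratios there rest on few reads. Its passage 3 counts were 361 reads with Thoc2 and 428 with Thoc5, against 966 in the input, 2.52-fold (2.22 to 2.84) and 2.69-fold (2.40 to 3.02) higher.

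The remaining calls were each made in 1 precipitate, all at passage 3. With Thoc5, Trim25 had 1107 reads in the precipitate and 2322 in the input, 2.90-fold (2.70 to 3.12) higher, Samd9l had 1564 and 4245 reads, 2.24-fold (2.11 to 2.37) higher, and Mx1 had 283 and 803 reads, 2.14-fold (1.86 to 2.46) higher. Centred on the median of all genes, Mx1 was no longer called (log2 0.94). With Thoc2, Eif2ak2 had 850 reads in the precipitate and 2751 in the input, 2.08-fold (1.92 to 2.25) higher. At passage 10, where fewer than 5 members were enriched, Trim25 came next with Thoc2, at 1.94-fold (1.74 to 2.17). With Thoc5 the next were Zbp1, with 9 reads in the precipitate and 6 in the input, Cmpk2, with 15 and 13 reads, and Usp18, with 68 and 74 reads, at log2 ratios of 0.84, 0.83 and 0.82.

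Isg15 was depleted in 3 of the 4 precipitates, all but Thoc2 at passage 10, and had the lowest log2 ratio of the members in each of the 4. At passage 10 it had 292 reads with Thoc2 and 139 with Thoc5, against 605 in the input, 0.564 (0.488 to 0.649) and 0.467 (0.386 to 0.563) of the input level. At passage 3 it had 1772 reads with Thoc2 and 4042 with Thoc5, against 53655 in the input, 0.222 (0.212 to 0.233) and 0.458 (0.444 to 0.473) of the input level. The other depleted members were all with Thoc2 at passage 3, namely Bst2 at 0.338 of the input level, Xaf1 at 0.360, Ifi44 at 0.364, Rtp4 at 0.377, Ifit1 at 0.470 and Zbp1 at 0.477. Irf7 and Ifit3, also abundant in the passage 3 input, stood at 0.632 and 0.565 of it with Thoc2 and were not called depleted.

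**Figure D4:**
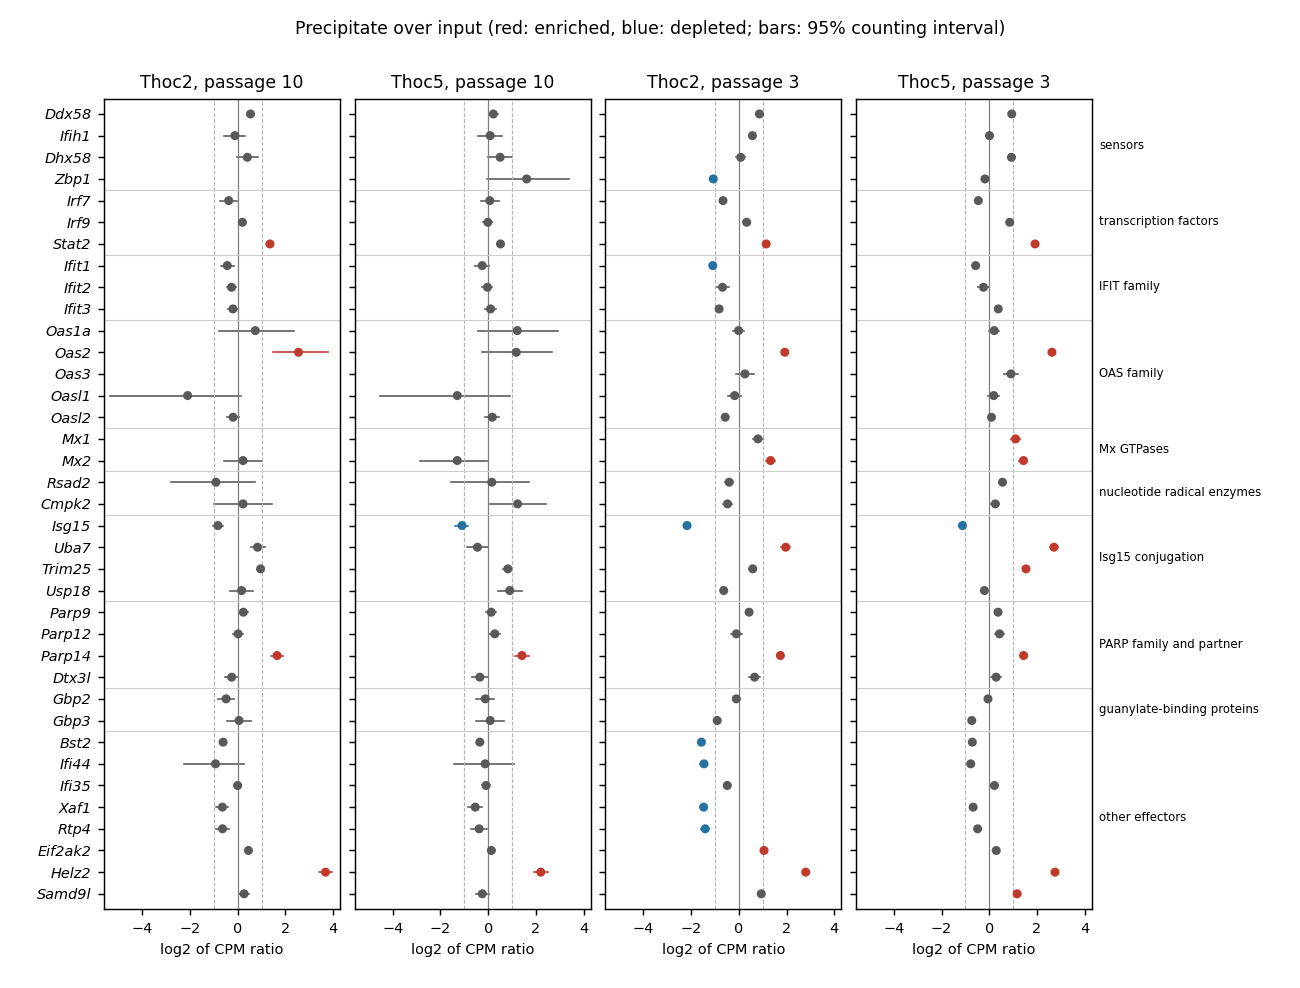
Log2 ratio of CPM, precipitate over input, for each member in the 4 precipitates, with 95% counting intervals, red for enriched and blue for depleted members. Points are ratios without the added 0.5 CPM, so low-count members with wide bars lie further out than the values used for the calls. Helz2 and Parp14 are red in all 4 panels, and most blue points are in the panel of Thoc2 at passage 3.

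Longer members had higher log2 ratios in all 4 precipitates. Spearman's rho across members with a deposited length was 0.586 (Thoc2) and 0.400 (Thoc5) at passage 10, over 34 and 35 members, and 0.686 and 0.596 at passage 3, over 35 each. Across all listed genes with a length, the passage 10 values were 0.611 for Thoc2 and 0.578 for Thoc5, and the passage 3 values 0.557 for Thoc2 and 0.408 for Thoc5. These describe genes within the same libraries, which are not independent replicates. Isg15 (756 bases) and Bst2 (769 bases) are the shortest members. Between passages, which share no library, the members' ratios had a rho of 0.835 with Thoc2 (34 members) and 0.417 with Thoc5 (35 members).

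**Figure D5:**
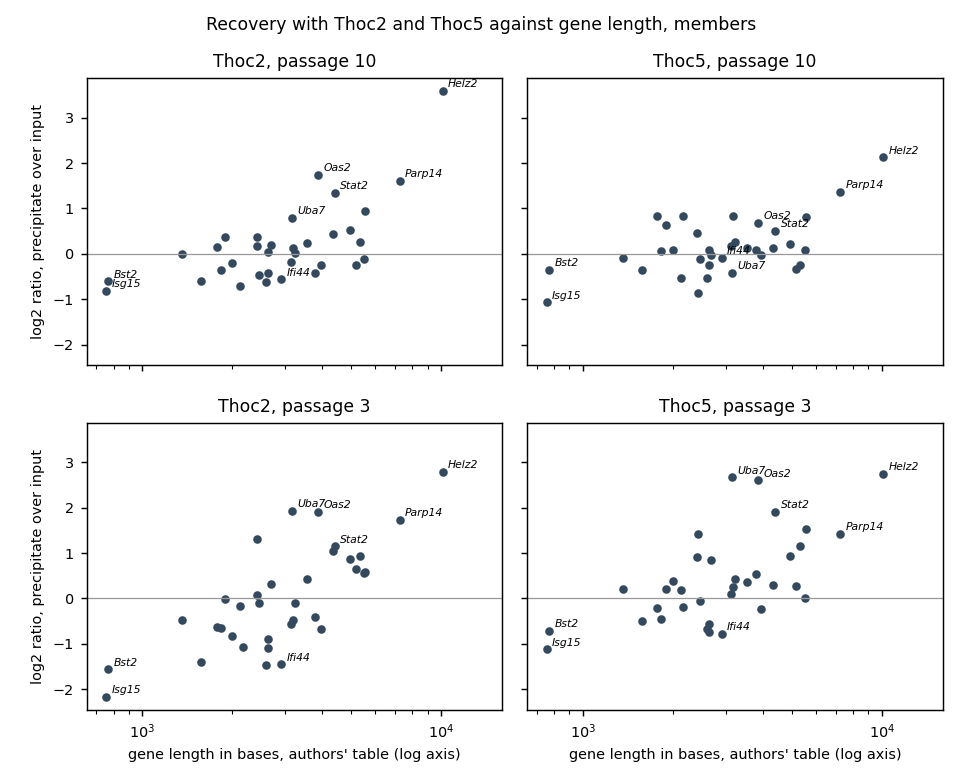
Log2 ratio of precipitate over input (0.5 CPM added) against deposited gene length (log axis) for the members with a length, 1 panel per precipitate. The longest, Helz2 at 10109 bases, is highest in each panel and the short Isg15 lies at or near the bottom.

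The precipitates were also set against each other. At passage 10, 4 members (Helz2, Oas2, Uba7 and Mx2) were at least 2-fold lower with Thoc5 than with Thoc2, where 3.79% of genes were, and 0 were at least 2-fold higher, where 1.13% were. Helz2 stood at 32.4 CPM with Thoc5 and 90.04 CPM with Thoc2, 0.359 of the Thoc2 level (0.316 to 0.407), and Uba7 at 6.30 and 15.3 CPM, 0.411 (0.304 to 0.548). Oas2 had 10 reads with Thoc5 and 45 with Thoc2, and Mx2 had 6 and 30. At passage 3, Ifit3 (2.30-fold, 2.19 to 2.41) and Isg15 (2.06-fold, 1.95 to 2.18) were at least 2-fold higher with Thoc5 than with Thoc2, where 14.6% of genes were, and 0 members were at least 2-fold lower, where 6.11% were. The members' median log2 ratio of Thoc5 over Thoc2 at passage 3 was 0.52, against 0.29 over all genes.

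The authors' deposited lists of selected genes held 2 to 5 of the members each. At passage 10 the Thoc2 list of 2277 genes held Stat2, Oas2, Trim25, Parp14 and Helz2 (14.7% of the members listed, against 16.9% of genes), and the Thoc5 list of 560 genes held Zbp1, Cmpk2, Parp14 and Helz2 (11.4%, against 4.23%). At passage 3 the Thoc2 list of 1046 genes held Uba7 and Helz2 (5.41%, against 7.15%), and the Thoc5 list of 919 genes held Oas2, Uba7 and Helz2 (8.11%, against 6.24%). Helz2 was in all 4, with scores from 0.9998 to 1 in the authors' deposited lists. Zbp1 and Cmpk2, listed with scores of 0.9813 and 0.3131, had under 20 reads in the Thoc5 precipitate and in the input of passage 10.

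Among the pathway genes outside the set, 6 of 69 detected were enriched with Thoc2 at passage 10 (12.3% of genes) and 0 of 70 with Thoc5 (5.94%), and at passage 3 the counts were 14 of 80 with Thoc2 (18.0%) and 21 of 80 with Thoc5 (23.0%). Depleted were 4 with Thoc2 (7.33% of genes) and 1 with Thoc5 (4.61%) at passage 10, and 16 with Thoc2 (21.8%) and 8 with Thoc5 (12.7%) at passage 3. Tyk2, a receptor kinase, was enriched in 3, with log2 ratios of 1.68 with Thoc2 at passage 10 and of 2.02 with Thoc2 and 2.60 with Thoc5 at passage 3. Ikbke, a kinase that activates Irf3 and Irf7, followed the same pattern at 1.29, 2.21 and 2.65, as did the RNA-editing enzyme Adar at 1.499, 1.86 and 2.03 and the helicase Znfx1 at 1.52, 2.01 and 1.80. Traf3, also enriched in 3, stood at 1.12, 1.59 and 1.02 in the same order. Jak2 was enriched with Thoc2 at passage 3 (1.36) and Irf3 with Thoc5 at passage 3 (1.06). Among the depleted genes, Ifitm3 had log2 ratios of −1.30 with Thoc2 at passage 10 and of −1.93 with Thoc2 and −1.32 with Thoc5 at passage 3, and Ifi27l2a had −1.81, −2.99 and −2.14 in that order and −1.15 with Thoc5 at passage 10.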

How the data were processed

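Per the labels' protocols, RNA-seq libraries came from total RNA with a TruSeq kit, and RIP-seq libraries from RNA recovered with a Magna RIP kit. The submitters' processing notes name build mm9 and the tools Subread, featureCounts, bcl2fastq and limma, beside HOMER 4.8.3 and MACS2 2.1.1. Which step each tool served, and whether strand was used, are not given in the sources used here. Per the file headers, the authors deposited read counts per gene, which were not normalized, a table of log2 fold changes with p-values for shThoc5 over shNT, and lists of selected RIP-seq genes with a score. In the RIP-seq tables the lowest sum of precipitate and input was 11 reads, so an unlisted gene was taken to have at most 10. The 2 tables of a passage gave the same input count for each gene.

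Symbols were looked up in a RefSeq table of GRCm38.p6, used for names, overlaps and promoters only (24191 of 26301 RNA-seq and 14732 of 15352 RIP-seq identifiers matched). Counts were compared with edgeR 4.0.16 (TMM scaling, filterByExpr, quasi-likelihood test, Benjamini-Hochberg adjustment over all genes, threshold 0.05), and DESeq2 1.42.0 and limma 3.58.1 served as alternatives, beside other scalings and filters, a replicate block and the omission of each library. RIP-seq ratios used CPM by library total with 0.5 CPM added, and 95% intervals are exact for the ratio of 2 counts. Genes left out of an input entered ratios between inputs at 10 reads and sums at 0. Both statistics were tested on simulated data.

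The members and lists were chosen with earlier results of these data known. All 37 members are accounted for. Per-library values are given for members of at least 1 CPM on average (for Oas3 and Mx1 as reads), fold changes for the 10 with the largest log2 change, and precipitation values for enriched members or the top 5.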

Additional observations from a re-analysis of the deposited data

Results flagged for a closer look

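Uba7, which encodes the Isg15-activating enzyme, had a log2 ratio with Thoc5 over input of −0.42 at passage 10 and 2.67 at passage 3. Mx2 had −0.86 with Thoc5 at passage 10, on 6 reads in the precipitate and 30 in the input, and 1.41 at passage 3. Both lay on opposite sides of the input at the 2 passages, with 1 library each, and these differences were not tested.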

How the results depend on the processing

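In RNA-seq, the count of genes called was 0 in edgeR, 48 with DESeq2, 1 with no low count filter and 0 to 47 when each library was left out, the highest without shThoc5 replicate 1. No member was called in any of these. With the replicate block, edgeR called 511 genes and 2 members, Ifit3 (log2 −0.60, adjusted p = 0.0191) and Parp14 (0.58, adjusted p = 0.0253). Same-numbered libraries deviated together (correlation 0.635 over 13569 genes), but with 2 pairs the numbers are not shown to pair the samples. The members' median log2 fold change was −0.12, −0.072 with library totals (0.057 over all genes) and −0.017 to −0.13 when each library was left out. The log2 fold change of Gbp2 (0.30) ranged from −0.11, without shNT replicate 2, to 0.85, and was −0.062 without shThoc5 replicate 1. In RIP-seq at passage 3, totals without ribosomal RNA, Lars2 and Malat1 gave summed ratios of 0.842 (Thoc2) and 1.04 (Thoc5), and centring on the median of all genes gave 0.766 and 0.885. The input ratio of passage 10 over passage 3 was 0.0747 by library totals and 0.0585 when centred. With a log2 ratio of at least 1.5, enriched members numbered 1 with Thoc5 at passage 10 and 4 (Thoc2) and 5 (Thoc5) at passage 3, and with 0.1 CPM added they numbered 4 with Thoc5 at passage 10. The cause of these changes was not tested. With 1 library each, RIP-seq depth limits only the counting error.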
